A study of Arabidopsis thaliana with 6 samples.

Results

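Class III peroxidases are secreted haem enzymes of plants, coded in Arabidopsis thaliana by a family of 73 genes named PRX1 to PRX73 in locus order. Described here are 55 of the 33602 genes in the deposited table, all of the family but 4 genes of root hairs (PRX7, PRX44, PRX60 and PRX73) and 14 others that were not on the list. The members were picked by locus, with no cut-off on their values, but with earlier results of the same comparison known. Calls and fold changes below therefore describe these genes and are not independent evidence about them. The libraries came from 12-day-old whole seedlings of the wild-type Columbia accession, grown on agar plates whose basal salts lacked nitrogen, with sucrose at 0.5%. In 3 libraries the only nitrogen source was 5 mM glutamine (Gln), and in the other 3 it was 5 mM NH4NO3. The Gln medium held neither nitrate nor ammonium, so the presence of Gln and the absence of these ions cannot be told apart.

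These enzymes use hydrogen peroxide to oxidise phenolic compounds in the cell wall, where they couple monolignols into lignin and cross-link wall proteins, and they can also form reactive oxygen species themselves. Different members serve different walls: the lignified vessels and fibres, the Casparian strip that seals the root endodermis, growing root hairs, and walls under attack by microbes. NADPH oxidases supply the superoxide from which the peroxide is formed, and laccases share with peroxidases the work of lignin polymerisation.

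The libraries held 30269306 to 35421727 reads in genes for Gln and 28654433 to 31980649 for NH4NO3, as implied by the deposited values. One library stood apart in its read numbers. Read numbers from 1 to 100 were even for 58.5% to 60.5% of genes in the Gln libraries and for 60.7% and 61.4% in NH4NO3 replicates 1 and 3, but for 45% in NH4NO3 replicate 2, with an exact binomial 95% interval of 43.8% to 46.2%. Nothing in the labels states that replicates were separate cultures, so the spread between libraries may be technical. Values are RPKM, reads scaled to gene length and library size, which allows levels to be compared between genes. A gene was called higher or lower when limma, fitted to log2(RPKM + 1) of the 19284 genes that averaged 1 RPKM or more, gave an adjusted p under 0.05. Log2 changes are Gln minus NH4NO3 on that scale, with their standard error, and understate the change of genes with low values.

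Most of the peroxidases called were higher in Gln. Of the 55 genes, 50 had a mean of at least 1 RPKM. Of these 50, 26 were called higher and 7 lower, and 17 were not called. Without PRX1 and PRX2, whose reads cannot be told apart, 48 were tested, with 25 called higher, 7 lower and 16 not called. Both genes stay in the counts that follow, PRX2 as called higher with a log2 change of at least 1 and PRX1 as not called. Among all genes tested 41.2% were called, 21.4% higher and 19.8% lower. Without NH4NO3 replicate 2, 22 peroxidases were called higher and 6 lower, and with no filter on low values 22 higher and 4 lower. The median log2 change of the 50 genes was 0.38, against -0.02 for all genes tested. A call with a log2 change of at least 1 was made for 11 members higher in Gln and 0 lower, where 3.13% of all genes were called higher and 0.876% lower by that margin. These counts depend on the scale: with a pseudocount of 5 they were 6 higher and 0 lower, and with a pseudocount of 0.1 they were 11 higher and 1 lower, the lower gene being PRX63. The values of the groups did not overlap for 34 of the 50, and for 53.6% of all genes tested. PRX10 and PRX59 averaged under 1 RPKM in NH4NO3 and were tested only because of their level in Gln.

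**Figure D1:**
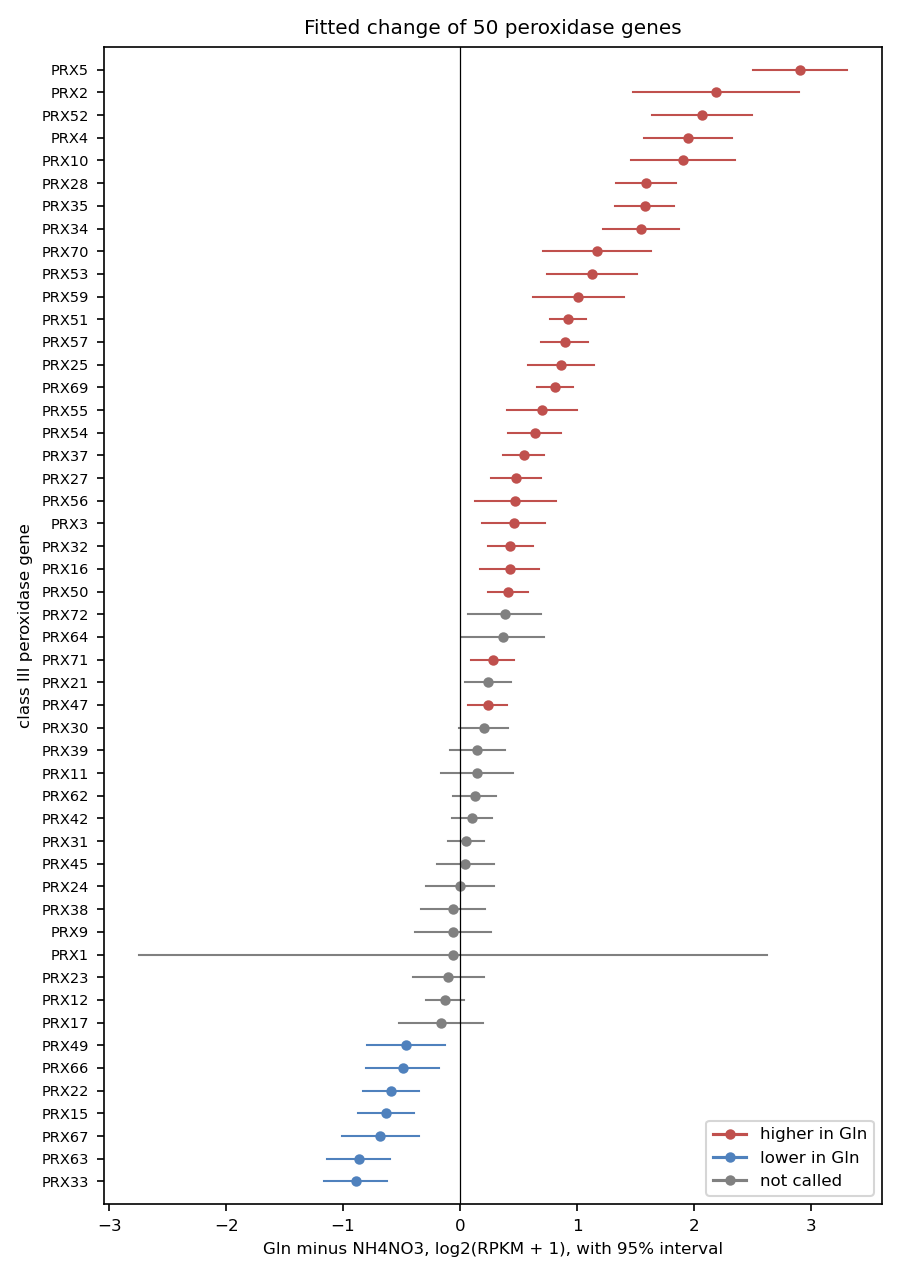
Fitted change of the 50 peroxidase genes tested, as the Gln minus the NH4NO3 value in log2(RPKM + 1), with lines for the 95% interval of the fit and colours for genes called higher, called lower or not called. PRX5 lies highest at 2.91 and PRX33 lowest at -0.89, and the interval of PRX1 spans -2.75 to 2.62. PRX1 and PRX2 can be read only as a sum, so their separate values cannot be assigned.

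Levels differed widely between genes. Averaged over the 6 libraries, 8 members exceeded 100 RPKM, 26 lay between 10 and 100 RPKM and 16 between 1 and 10 RPKM. The 5 most abundant, PRX42, PRX34, PRX71, PRX21 and PRX69, made up 54.0% to 61.0% of the summed RPKM of the members in a library. The sum over all 55 was 4790, 4556 and 4456 RPKM in Gln, against 3133, 3133 and 3380 RPKM in NH4NO3. PRX34 alone took 24.5%, 21.4% and 16.6% of that sum in Gln, against 9.61%, 10.3% and 10.3% in NH4NO3. Without PRX34 the members summed to 3638 ± 68.6 RPKM in Gln and 2892 ± 122 RPKM in NH4NO3 (mean ± SD, n = 3 each, here and below).

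**Figure D2:**
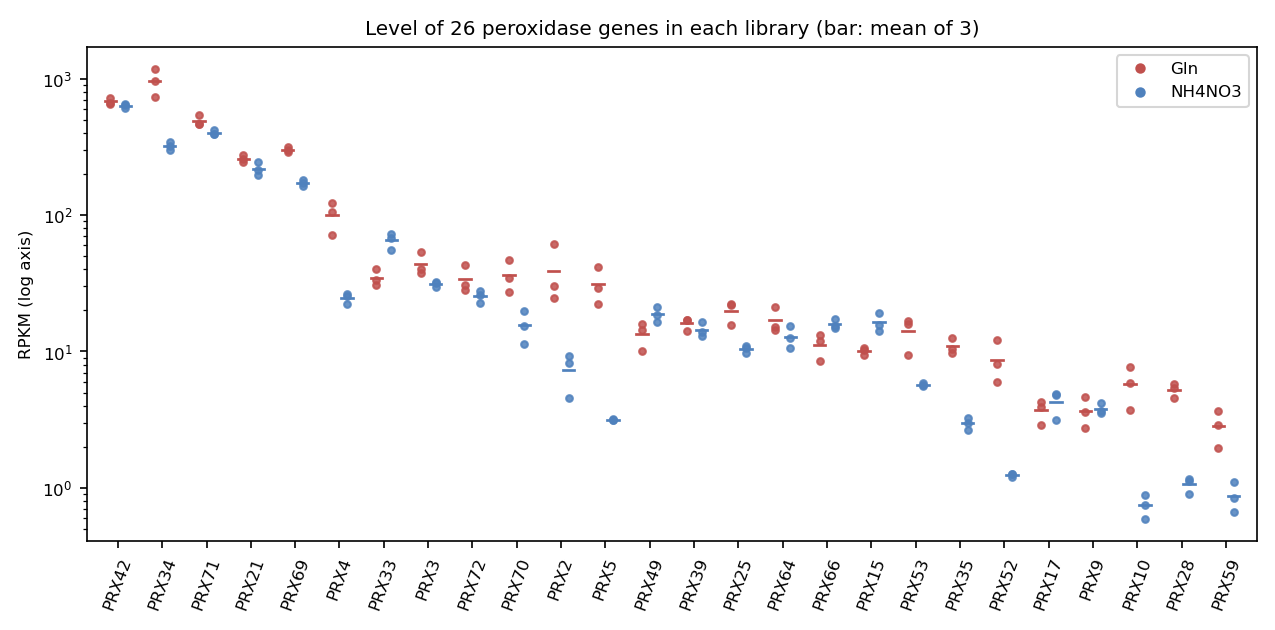
RPKM on a log axis in each of the 3 Gln and 3 NH4NO3 libraries for 26 peroxidase genes chosen by role, size of change or level, ordered by mean level, with a bar at the mean of each group. PRX42 lies at 658 to 729.9 RPKM in Gln and 610.3 to 653 RPKM in NH4NO3, whereas PRX34 reaches 741 to 1174 RPKM in Gln against 301 to 347 RPKM in NH4NO3. The values of PRX2 cannot be told apart from those of PRX1.

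The genes of the oxidative burst moved in opposite directions. PRX33 (AT3G49110) and PRX34 (AT3G49120) code for wall peroxidases that produce hydrogen peroxide when cells recognise microbes and that also act in cell elongation. PRX34 had 1174, 973 and 741 RPKM in the Gln libraries, against 301, 321 and 347 RPKM in the NH4NO3 libraries. It was called higher, with a log2 change of 1.55 ± 0.15. PRX33 had 40.4, 33.3 and 30.7 RPKM in the Gln libraries, against 55.5, 68.4 and 72.5 RPKM in the NH4NO3 libraries. It was called lower, with a log2 change of -0.89 ± 0.12, and neither gene overlapped between the groups. The level of PRX34 was 29.0, 29.2 and 24.2 times that of PRX33 within the Gln libraries, against 5.42, 4.70 and 4.79 times within the NH4NO3 libraries. The genes lie on the plus strand of chromosome 3 at 18207651 to 18210333 (PRX34) and 18200587 to 18203265 (PRX33), with 4385 bases and 1 other coding gene between them. Their coding sequences are 90.4% identical. The deposited multi-read ratio, which by its name gives the highest proportion of multiply mapped reads, was 0.000206 for PRX34 and 0.000199 for PRX33, so few of their reads were ambiguous.

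The 250 bases before the annotated starts of both genes are shown because the genes are neighbours and close copies that moved apart. They were read from TAIR10.1 on the plus strand, 5′ to 3′, at chr3:18207401-18207650 and chr3:18200337-18200586, and capitals mark TTGAC or its complement GTCAA, the core of the W-box that WRKY transcription factors bind.
PRX34: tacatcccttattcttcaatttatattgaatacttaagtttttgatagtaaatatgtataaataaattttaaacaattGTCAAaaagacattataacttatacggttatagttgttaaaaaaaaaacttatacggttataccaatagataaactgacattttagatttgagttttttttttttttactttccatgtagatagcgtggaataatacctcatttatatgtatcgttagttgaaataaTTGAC
PRX33: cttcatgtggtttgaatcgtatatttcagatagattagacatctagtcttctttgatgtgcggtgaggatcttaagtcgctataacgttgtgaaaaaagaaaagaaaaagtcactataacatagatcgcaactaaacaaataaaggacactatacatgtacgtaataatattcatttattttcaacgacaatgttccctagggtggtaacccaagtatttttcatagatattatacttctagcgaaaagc
The core stands 2 times before PRX34 and not in the window of PRX33. It is found on either strand in 44.9% of the 27438 windows of this length before protein-coding genes, in 10 of 26 members called higher, 3 of 7 called lower and 8 of 17 not called. The G-box CACGTG was in no window of the 50 members tested, and in 6.49% of all windows. The motif TGACG, which can share bases with TTGAC, was in 4 windows of members called higher, 1 called lower and 1 not called, and in 18.6% of all windows. These matches describe the sequence and do not show binding.

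Among 6 genes known for lignin formation, 4 were called higher, 1 lower and 1 was not called. For this and the later gene lists, the share over all genes tested was 21.4% called higher and 19.8% lower. The count depends on how members were sorted. PRX3, PRX9, PRX39, PRX64 and PRX72, of Casparian strip lignin, stand in another set, and PRX2 in none. PRX4 (AT1G14540), which takes part in stem lignification, had 124, 106 and 71.5 RPKM in the Gln libraries, against 26.4, 22.3 and 25.5 RPKM in the NH4NO3 libraries. Its log2 change was 1.95 ± 0.17. PRX52 (AT5G05340), needed for lignin of the fibres between vascular bundles, had 12.2, 8.05 and 5.98 RPKM in the Gln libraries, against 1.27, 1.26 and 1.2 RPKM in the NH4NO3 libraries. Every Gln library stood above every NH4NO3 library for both genes, and the log2 change of PRX52 was 2.07 ± 0.19. PRX52 lies on the minus strand at chr5:1578869-1580875, with 4 coding exons. PRX25 (AT2G41480), a cationic wall peroxidase of lignification, had 15.7, 21.8 and 22.4 RPKM in the Gln libraries, against 11.0, 10.5 and 9.68 RPKM in the NH4NO3 libraries, a log2 change of 0.86 ± 0.12. PRX71 (AT5G64120), a wall peroxidase of lignification induced by low osmotic strength, was abundant in both media, with 541, 468 and 464 RPKM in Gln and 395, 396 and 419.7 RPKM in NH4NO3. Its log2 change of 0.28 ± 0.08 was called here and in 9 of 14 alternative fits. In 1 of the 14, PRX1 and PRX2 were summed, which leaves the values of other genes unchanged and so hardly tests their calls. PRX66 (AT5G51890), of the lignifying water vessels of the root, went the other way, with 8.46, 12.0 and 13.2 RPKM in Gln and 17.5, 14.9 and 15.4 RPKM in NH4NO3. It was called lower, with a log2 change of -0.49 ± 0.14. Its gene shares 118 bases with AT5G51880 on the other strand, a gene at 41.1 RPKM, and the library kit does not mark strand. PRX66 was called in 12 of 14 alternative fits. The call was lost without NH4NO3 replicate 1, where the log2 change was -0.43, and when genes with low values were kept, where it stayed at -0.49. PRX17 (AT2G22420) had 2.90, 3.88 and 4.29 RPKM in Gln and 3.13, 4.81 and 4.89 RPKM in NH4NO3, and was not called.

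PRX5 (AT1G14550, chr1:4978922-4980466, plus strand) and PRX4 (chr1:4974021-4975705, minus strand) are neighbours with 4 coding exons each and 3216 bases between them, and both were called higher. PRX5 had the largest change of the members, with 41.9, 29.4 and 22.3 RPKM in the Gln libraries, against 3.14, 3.2 and 3.15 RPKM in the NH4NO3 libraries. That is a ratio of means of 9.87 and a log2 change of 2.91 ± 0.18. The level of PRX5 was 0.338, 0.278 and 0.312 times that of PRX4 in Gln, against 0.119, 0.144 and 0.124 times in NH4NO3, and the ratios did not overlap between the groups. Their coding sequences are 72.3% identical, and no reads of either were listed as ambiguous. The windows before the genes lie at chr1:4978672-4978921 on the plus strand for PRX5 and chr1:4975706-4975955 on the minus strand for PRX4. They are shown for a pair called in the same direction, with the W-box core in capitals.
PRX5: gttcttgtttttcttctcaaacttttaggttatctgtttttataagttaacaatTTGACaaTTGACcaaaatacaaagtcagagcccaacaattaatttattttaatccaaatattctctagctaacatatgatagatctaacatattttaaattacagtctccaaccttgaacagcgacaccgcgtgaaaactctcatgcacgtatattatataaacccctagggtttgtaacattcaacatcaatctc
PRX4: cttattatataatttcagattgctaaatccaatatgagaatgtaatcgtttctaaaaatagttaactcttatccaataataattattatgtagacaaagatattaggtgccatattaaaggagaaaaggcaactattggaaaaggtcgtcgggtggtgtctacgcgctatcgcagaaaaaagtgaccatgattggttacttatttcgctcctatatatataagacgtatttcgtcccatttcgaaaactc
The core stands 2 times before PRX5 and not in the window of PRX4.

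PRX3, PRX9, PRX39, PRX64 and PRX72 act together to lay down the lignin of the Casparian strip, and 1 of these 5 was called. Their summed level was 98.8, 105 and 139.7 RPKM in Gln, against 93.9, 82.4 and 87.4 RPKM in NH4NO3, with Gln replicate 3 the highest. PRX3 (AT1G05260), also known as RCI3 for its induction by cold, was the member of this set that was called. It had 37.4, 40.3 and 53.9 RPKM in Gln and 32, 29.5 and 32.3 RPKM in NH4NO3, a log2 change of 0.46 ± 0.12. It was called in 13 of 14 alternative fits, and not with no filter on low values, and its log2 change was 0.30 without Gln replicate 3. PRX72 (AT5G66390), with 28.4, 30.6 and 42.9 RPKM in Gln and 25.8, 22.9 and 27.8 RPKM in NH4NO3, was not called although its groups did not overlap. PRX64 (AT5G42180), the peroxidase that is placed precisely at the strip, had 15.2, 14.5 and 21.3 RPKM in Gln and 15.4, 12.6 and 10.6 RPKM in NH4NO3. PRX39 (AT4G11290) had 14.1, 17.1 and 17 RPKM in Gln and 16.4, 13.9 and 13 RPKM in NH4NO3. PRX9 (AT1G44970) had 3.63, 2.75 and 4.61 RPKM in Gln and 4.22, 3.54 and 3.66 RPKM in NH4NO3. The groups overlapped for PRX64, PRX39 and PRX9, none of which was called, and the 95% intervals of their log2 changes were 0.02 to 0.72, -0.09 to 0.38 and -0.39 to 0.26. PRX72 was called in 4 of 14 alternative fits and PRX64 in 1.

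PRX15 and PRX49, which are switched on when the endodermis makes extra lignin in response to a broken strip, were both called lower. PRX15 (AT2G18150) had 9.38, 10.3 and 10.6 RPKM in Gln and 15.6, 14.2 and 19.2 RPKM in NH4NO3, a log2 change of -0.64 ± 0.11. PRX49 (AT4G36430) had 10.11, 14.4 and 15.9 RPKM in Gln and 16.5, 18.4 and 21.3 RPKM in NH4NO3, a log2 change of -0.46 ± 0.15. The values of PRX49 came close between Gln replicate 3 and NH4NO3 replicate 1. Its call was lost without Gln replicate 1, NH4NO3 replicate 2 or NH4NO3 replicate 3, with log2 changes of -0.28, -0.47 and -0.37. It was also lost with no filter on low values, at an unchanged -0.46, so PRX49 was called in 10 of 14 alternative fits.

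PRX1 (AT1G05240, chr1:1520278-1523023, plus strand) and PRX2 (AT1G05250, chr1:1525601-1527360, minus strand), which the annotation links to lignification through PRX2, can be read only as a sum. Their coding sequences are identical over all 978 bases, and both had a multi-read ratio of 0.998. Bases 301 to 360 of the coding sequence, from TAIR10.1, show this, with the next gene on the chromosome, PRX3, for contrast, where capitals mark the 28 bases that differ from PRX1.
PRX1: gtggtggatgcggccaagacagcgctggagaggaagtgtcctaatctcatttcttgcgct
PRX2: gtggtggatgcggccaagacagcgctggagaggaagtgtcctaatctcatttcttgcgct
PRX3: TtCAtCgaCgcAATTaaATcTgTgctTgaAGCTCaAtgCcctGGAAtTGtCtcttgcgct
The table listed 0, 2130 and 2049 implied reads for PRX1 in the Gln libraries, against 643, 425 and 454 in the NH4NO3 libraries. For PRX2 it listed 2564, 1226 and 1394 in Gln, against 200, 398 and 319 in NH4NO3. Gln replicate 1 thus had no read assigned to PRX1 and the most of any library assigned to PRX2. Added together, the genes had 61.9, 70.01 and 77.3 RPKM in Gln, against 20.02, 19.8 and 20.8 RPKM in NH4NO3. With PRX1 and PRX2 fitted as 1 gene, a choice made after seeing the data, the log2 change was 1.75 ± 0.08 and called. PRX1 taken alone was not called and PRX2 taken alone was called higher, but neither value can be assigned to its gene.

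**Figure D3:**
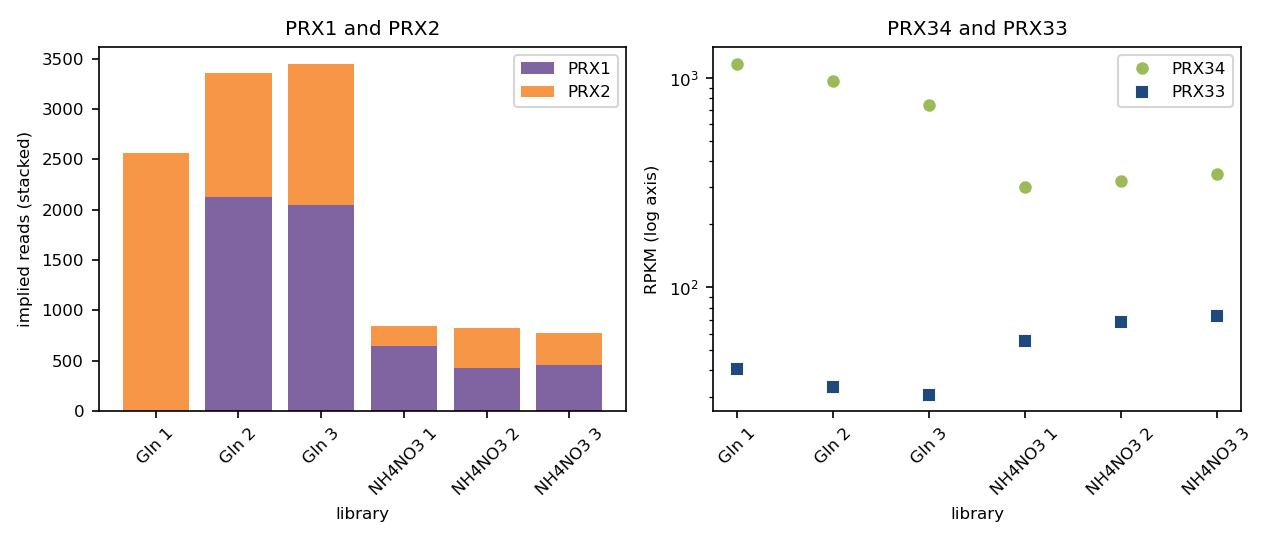
Left, implied reads of PRX1 and PRX2 stacked for each library, with 2564 reads in Gln replicate 1, all listed under PRX2, and 773 to 843 in the NH4NO3 libraries. Right, RPKM of PRX34 and PRX33 on a log axis in each library, with PRX34 higher and PRX33 lower in all 3 Gln libraries than in any NH4NO3 library.

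The remaining genes with a log2 change of at least 1 were PRX10, PRX28, PRX35, PRX53, PRX59 and PRX70. PRX10 (AT1G49570) had 3.70, 5.82 and 7.74 RPKM in Gln and 0.750, 0.892 and 0.594 RPKM in NH4NO3, a log2 change of 1.91 ± 0.20. PRX28 (AT3G03670) had 5.36, 5.78 and 4.58 RPKM in Gln and 1.17, 0.906 and 1.13 RPKM in NH4NO3, a log2 change of 1.59 ± 0.12. Both rest on few reads in NH4NO3, as low as 22 for PRX10 and 33 for PRX28. PRX10 and PRX28 lie at chr1:18346958-18349049 on the plus strand and chr3:901728-903411 on the minus strand. PRX53 (AT5G06720), with roles in the wound response, flower development and nematode feeding sites, had 16.7, 15.9 and 9.50 RPKM in Gln and 5.66, 5.61 and 5.88 RPKM in NH4NO3. PRX70 (AT5G64110) had 46.9, 34.6 and 27.4 RPKM in Gln and 11.4, 19.7 and 15.4 RPKM in NH4NO3. PRX59 (AT5G19890) had 1.95, 2.87 and 3.64 RPKM in Gln and 0.847, 1.09 and 0.669 RPKM in NH4NO3. It also rests on few reads, as low as 24 in a library, and its log2 change ranged from 0.41 to 1.69 over 13 alternative fits, all with a call. No Gln library of these genes fell within the range of the NH4NO3 libraries.

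PRX35 (AT3G49960) goes against the description of the members as outside root hairs, since the annotation calls its expression enriched in root hair cells. It lies at chr3:18524084-18525792 on the minus strand. It had 10.4, 9.69 and 12.6 RPKM in Gln, against 2.65, 2.997 and 3.27 RPKM in NH4NO3, and a log2 change of 1.58 ± 0.11. The 4 root hair peroxidases left out of the list, all called higher, had log2 changes from 1.12 for PRX60 to 1.74 for PRX73. Further members, PRX62 (AT5G39580) and PRX69 (AT5G64100), are known to act in root hair growth in the cold. PRX69 was called higher, with 292, 302 and 315 RPKM in Gln and 172, 163 and 181 RPKM in NH4NO3, a log2 change of 0.81 ± 0.07. PRX62 had 213, 193 and 190.2 RPKM in Gln and 193, 164 and 191 RPKM in NH4NO3, and was not called. The libraries hold whole seedlings, so a change in the number of cells of a type and a change in RNA per cell cannot be told apart.

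PRX42 (AT4G21960), also named PRXR1, had the highest mean of the members over the 6 libraries, although PRX34 was higher in every Gln library. PRX42 was not called, with 668, 658 and 729.9 RPKM in Gln and 610.3, 653 and 649 RPKM in NH4NO3. The 95% interval of its log2 change was -0.07 to 0.28. PRX21 (AT2G37130) had 244, 257 and 275 RPKM in Gln and 215, 199 and 246 RPKM in NH4NO3 and was not called, with Gln replicate 1 below NH4NO3 replicate 3. PRX21 was called in 3 of 14 alternative fits, and its log2 change was 0.32 without NH4NO3 replicate 3, where it was called.

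The other genes called lower were PRX22, PRX63 and PRX67. PRX63 (AT5G40150) had 1.34, 1.93 and 2.04 RPKM in Gln and 4.02, 4.00 and 4.05 RPKM in NH4NO3, and 288 bases of it overlap AT5G40153 on the other strand. PRX67 (AT5G58390) had 7.04, 4.10 and 5.10 RPKM in Gln and 8.36, 9.34 and 9.63 RPKM in NH4NO3, and lost its call with no filter on low values. PRX22 (AT2G38380) had 26.2, 30.3 and 36.1 RPKM in Gln and 45.8, 44.0 and 50.2 RPKM in NH4NO3. The ratio of means of PRX63 was 0.44, although its log2 change on the log2(RPKM + 1) scale was -0.87 ± 0.12.

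Some neighbouring copies had different calls, although the difference between copies was not tested. PRX23, next to PRX22 and 90.6% identical to it in coding sequence, had 22.0, 21.2 and 29.1 RPKM in Gln and 28.0, 21.5 and 28.1 RPKM in NH4NO3. PRX23 was not called, and the level of PRX22 was 1.19, 1.43 and 1.24 times that of PRX23 in Gln, against 1.63, 2.05 and 1.79 times in NH4NO3. PRX37 (AT4G08770), a peroxidase of the vascular bundles whose overexpression dwarfs the plant, had 30.2, 28.0 and 29.2 RPKM in Gln and 17.7, 20.3 and 21.0 RPKM in NH4NO3 and was called higher. Its neighbour PRX38, 93.8% identical, had 2.58, 3.11 and 3.89 RPKM in Gln and 3.38, 3.30 and 3.30 RPKM in NH4NO3 and was not called. PRX38 shares 143 bases with AT4G08790 on the other strand, a gene at 4.30 RPKM, and the library kit does not mark strand. The neighbours PRX50 and PRX51, 92.4% identical, were both called higher, with log2 changes of 0.41 ± 0.08 and 0.92 ± 0.07. PRX53 and PRX54 were both called higher as well, at 1.13 ± 0.17 and 0.64 ± 0.10. So were PRX69, PRX70 and PRX71, 3 genes in a row on chromosome 5. PRX58 and PRX68 were below the filter while their neighbours PRX59 and PRX67 were tested.

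The members called higher split by which Gln library was highest, and so did the tested members as a whole. Of all 48 tested members besides PRX1 and PRX2, replicate 1 was highest for 16, replicate 2 for 3 and replicate 3 for 29. The same shares over all genes were not counted. Of the 25 called higher besides PRX2, 9 had their highest Gln value in replicate 1 and their lowest in replicate 3. These were PRX4, PRX5, PRX34, PRX50, PRX51, PRX52, PRX53, PRX70 and PRX71, and replicate 1 was 1.11 to 2.03 times replicate 3. Another 11 were highest in replicate 3 and lowest in replicate 1, with a ratio of replicate 1 to replicate 3 of 0.478 to 0.927, and these included PRX3, PRX10, PRX25, PRX57, PRX59 and PRX69. The markers of root cells other than hairs summed to 128, 154 and 181 RPKM in Gln replicates 1 to 3, and those of root hairs to 79.8, 76.8 and 95.3 RPKM. The part of root content in this split was not tested.

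**Figure D4:**
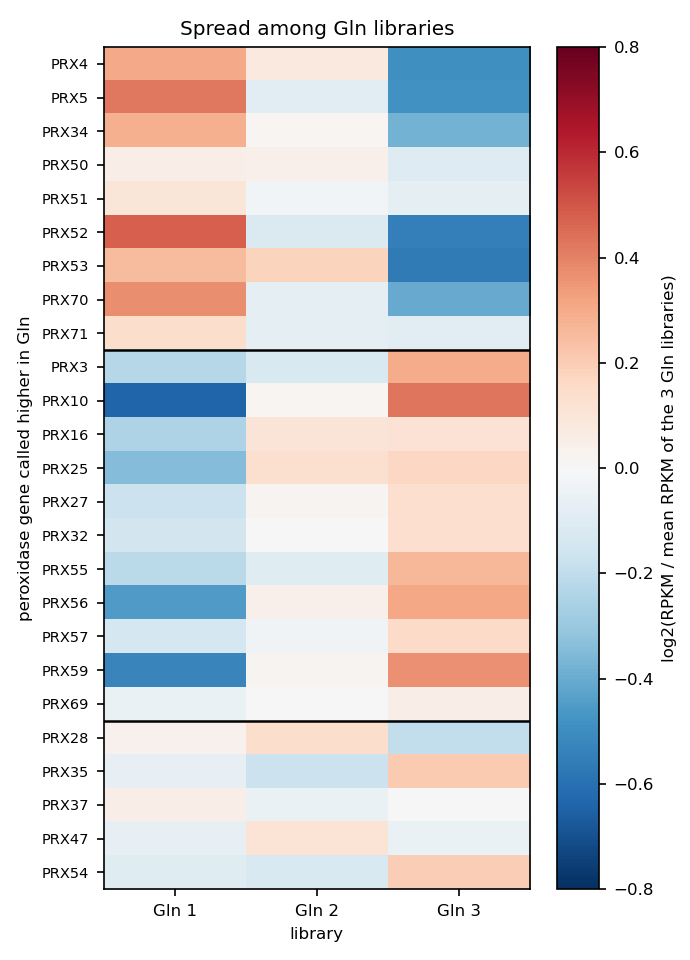
Log2 ratio of RPKM in each Gln library to the mean of the 3 Gln libraries, for the 25 members called higher besides PRX2, with black lines between genes highest in replicate 1 and lowest in replicate 3 (top 9), the reverse (next 11) and the other 5. PRX52 and PRX10 show the widest spread in opposite directions.

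Markers of shoot photosynthesis and of root hairs moved with the comparison. Some of the other root markers were called in either direction, and their sums overlapped between the groups. Of 9 photosynthesis genes 7 were called lower and 2 were not called, and their sum was 34615 to 43013 RPKM in Gln and 43567 to 51202 RPKM in NH4NO3. Of 10 markers of root cells other than hairs, 9 were tested, with 4 called higher (CASP1, CASP4, MYB36 and PHO1) and 1 lower (TIP2;3). TIP2;3 had 14.5, 17.2 and 24.2 RPKM in Gln and 31.8, 27.1 and 36.2 RPKM in NH4NO3. With TIP2;3 included, the 10 markers summed to 128 to 181 RPKM in Gln and 127 to 142 RPKM in NH4NO3. WOX5 of the root tip stayed below 1 RPKM on average. All 8 root hair markers were called higher, with sums of 76.8 to 95.3 RPKM in Gln and 32.4 to 36.7 RPKM in NH4NO3. Their part in the peroxidase results was not tested.

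Other genes of the same chemistry gave a mixed picture. Of the 14 class III peroxidases not on the list, 7 were tested, 3 called higher and 1 lower, with PRX29 the lower one at a log2 change of -0.60 ± 0.14. Of 10 NADPH oxidase genes 7 were tested and 6 were called higher, at log2 changes of 0.41 to 0.64. Among these 6 is RBOHC, which is also counted in the root hair markers. RBOHD, the main oxidase of the immune oxidative burst and the most abundant here, had 61.4 ± 7.56 RPKM in Gln and 65.9 ± 2.64 RPKM in NH4NO3 and was not called. Of 17 laccase genes 12 were tested, 4 called higher and 1 lower. LAC4 and LAC17, the main laccases of stem lignin, were not called, at log2 changes of -0.115 ± 0.095 and -0.349 ± 0.136. The laccase called lower was LAC11, at -0.456 ± 0.116. The largest laccase change was that of LAC9 at 1.26 ± 0.08. Of 8 ascorbate peroxidases, the class I enzymes inside the cell, 7 were tested, 1 called higher and 2 lower. APX1 of the cytosol had 611 ± 9.05 RPKM in Gln and 382 ± 16.5 RPKM in NH4NO3, and the thylakoid TAPX 45 ± 3.91 RPKM in Gln and 60.1 ± 1.67 RPKM in NH4NO3. UPB1, a root transcription factor that represses PRX39, PRX40 and PRX57, had 14.96 ± 2.998 RPKM in Gln and 15.9 ± 1.06 RPKM in NH4NO3 and was not called. Of these 3 genes, PRX39 was not called, at a log2 change of 0.15, and PRX40 was not tested. PRX57 (AT5G17820) was called higher, with 75.4, 81.6 and 92.2 RPKM in Gln and 45.7, 39.96 and 46.9 RPKM in NH4NO3.

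**Figure D5:**
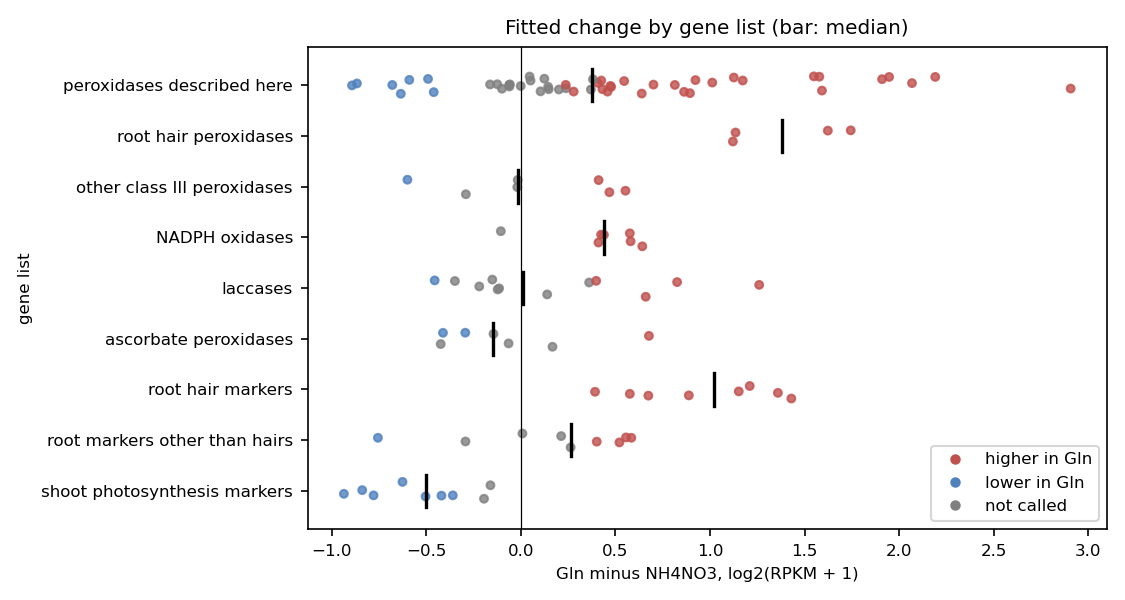
Fitted change of each tested gene, as the Gln minus the NH4NO3 value in log2(RPKM + 1), by gene list, with colours for genes called higher, called lower or not called and a bar at the median of each list. The peroxidases described here spread from -0.89 to 2.91, and the 4 root hair peroxidases lie between 1.12 and 1.74.

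The 5 members below the filter were PRX13, PRX36, PRX40, PRX58 and PRX68. PRX36, a factor of mucilage release from the seed coat, had at most 1 read in any library, so no change could be measured. PRX40, which acts in the anther, had 0.573, 0.867 and 0.686 RPKM in Gln and 0.639, 0.631 and 0.313 RPKM in NH4NO3. PRX58 (AT5G19880) had 1.47, 1.26 and 0.978 RPKM in Gln and 0.234, 0.318 and 0.409 RPKM in NH4NO3, with no overlap between the groups and 9 to 57 reads in a library.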

How the data were processed

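RNA sequencing libraries were compared from 3 Gln and 3 NH4NO3 samples of whole seedlings. The authors deposited 1 RPKM value per gene and library, after TMM scaling, the trimmed-mean method for library sizes, which the table's name states. Gene length and a maximum multi-read ratio are given per the file headers, and the RPKM unit was inferred from the values. Per the submitters' processing notes the genome build was TAIR10 and SAMtools was among the tools. No aligner, counter or annotation release was given in the sources used here. The deposited multi-read ratio is a fraction, undefined in the headers. Multiplying RPKM by length gave whole steps, offset by 0.5 of a read, and these implied numbers up to 20 reads were whole within 0.05 for 98.1% to 98.8% of values. Exact binomial intervals cover counting error only.

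limma 3.58.1 in R 4.3.3 was fitted to log2(RPKM + 1) of genes averaging 1 RPKM or more, with a mean-variance trend and 2-sided p-values adjusted by Benjamini-Hochberg over all genes tested. The fit was tested on simulated data with the same dispersion set for every gene, which does not test the calls at the spread of these libraries. Members, gene lists and naming rule were chosen with earlier results of these data known. Full values were given for members called at a log2 change of at least 1, for the 5 most abundant, and for 15 members of barrier, burst and lignin roles, 26 in all, and further genes named were chosen after their values were seen. Symbols, positions and sequences came from RefSeq's TAIR10.1 annotation, which held all 55 loci and stated the PRX number for 12, the others following the family's locus order. Coding sequences were aligned globally with Biopython 1.88. Alternatives were other pseudocounts, filters, quantile normalization, a replicate block, voom weights on implied reads and leaving out each library. The fit with PRX1 and PRX2 summed, not planned, is counted among the alternatives that kept every library and leaves the values of other genes unchanged.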

Additional observations from a re-analysis of the deposited data

How the results depend on the processing

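The number of members called higher was 21 to 28 and of members called lower 4 to 8 under the 8 alternatives that kept every library, the lowest lower count (4) being that with no filter on low values, where more genes were tested. Leaving out 1 library in turn gave 22 to 29 higher and 6 to 7 lower. Over all genes the number called was 5900 to 8328. The number called with a log2 change of at least 1 was 6 with a pseudocount of 5, 7 with a filter at 5 RPKM, where fewer genes were tested, and 10 to 11 otherwise, leaving out 1 library included. The number at -1 or below was 1 with a pseudocount of 0.1 and with voom weights (PRX63 in both), 0 to 1 when leaving out 1 library (PRX33, without Gln replicate 1 or NH4NO3 replicate 1), and 0 otherwise. Of the 50 members tested, 15 changed their call under some alternative. The call was lost by 8 (PRX3, PRX16, PRX47, PRX49, PRX56, PRX66, PRX67 and PRX71) and gained by 7 (PRX1, PRX11, PRX12, PRX21, PRX30, PRX64 and PRX72). PRX9, not called at a log2 change of -0.06, ranged from -0.204 without Gln replicate 3 to 0.087 without Gln replicate 2 and was 0.001 without NH4NO3 replicate 1. Samples with the same replicate number did not deviate together (correlations -0.07, -0.10 and -0.01), so no pairing by number was visible. This does not show whether such samples were grown or processed together. With the replicate block 27 members were higher, 7 lower and 7274 genes called. Genes at a few reads, such as PRX36 and PRX13, are limited by depth.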
